A study of Mus musculus with 4 samples.

Results

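Kupffer cells (KCs) that carry the phosphatidylserine receptor Timd4 were examined in single-cell transcriptomes of mouse liver. The cells were selected on raw UMI counts, that is counts of distinct transcript molecules, in barcodes where 500 genes or more were detected and mitochondrial genes gave no more than 20% of UMIs. A cell was a member when it held at least 10 UMIs of C1qa, C1qb and C1qc together, at least 1 Timd4 UMI, no UMI of the T cell genes Cd3d, Cd3e and Cd3g or of the B cell genes Cd79a and Cd79b, and at most 2 UMIs of the endothelial genes Ptprb and Stab2. This rule found 573 cells among 31290 kept cells. The cells that met every condition but had no Timd4 UMI numbered 1792 and are called Timd4-negative macrophages. Both classes together are the 2365 C1q-high macrophages.

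All libraries came from the livers of male C57BL/6J mice. NCD stands for normal chow, HFD for a high-fat diet, and JQF for mice on that diet which were later given the herbal mixture Jiangtang Qingre Formula by mouth, in place of which the NCD and HFD mice received distilled water by mouth. After perfusion the tissue was digested, red cells were lysed and debris and dead cells were cleared where needed, so each library is a mixed suspension and not a sort. The labels give the cell type as "Immune cell" and the cell line as "hematopoietic stem cell", which does not describe the mixture or the macrophages studied here. NCD and JQF had 1 library each and HFD had 2, so replicate spread was known for HFD alone.

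KCs are the macrophages that live in the liver sinusoids, where they clear particles, complement-coated material and ageing red cells from the blood. KCs seeded before birth renew themselves and carry Timd4, whereas macrophages that arise from monocytes in the adult liver acquire Clec4f and other KC genes first and Timd4 late or not at all. In mice on fatty diets, embryonic KCs are known to be lost in part, and macrophages with a lipid-handling programme marked by Trem2 and Gpnmb are known to appear.

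The number of Timd4 KCs was 79 in NCD, 6 in HFD replicate 1, 356 in HFD replicate 2 and 132 in JQF. As a share of all kept cells this was 1.32% in NCD (exact Clopper-Pearson 95% interval 1.05% to 1.65%, 79 of 5975 cells). The share was 0.0921% in HFD replicate 1 (0.0338% to 0.200%, 6 of 6516 cells). It was 3.47% in HFD replicate 2 (3.12% to 3.84%, 356 of 10259 cells) and 1.55% in JQF (1.29% to 1.83%, 132 of 8540 cells). The libraries of the HFD group thus lay on either side of the single NCD and JQF libraries and further from each other than from those. These intervals cover counting error only, not the spread between animals. Across 9 cell classes, with the kept cells as offset, edgeR gave a log2 fold change of 0.43 ± 2.44 (SE) for HFD against NCD (adjusted p = 0.872) and of -0.21 ± 2.41 for JQF against HFD (adjusted p = 0.960). Neither difference was larger than the spread between the HFD libraries. Without HFD replicate 1 the log2 ratios were 1.39 and -1.17, and without HFD replicate 2 they were -3.84 and 4.07, so the direction rested on which HFD library was used. In a cell suspension, fewer cells of a type in the liver and fewer cells recovered from it cannot be told apart.

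Among C1q-high macrophages the order of the libraries was different. Timd4 KCs made up 78.2% of the C1q-high macrophages of NCD (68.9% to 85.8%, 79 of 101 cells). The share was 1.47% in HFD replicate 1 (0.542% to 3.17%, 6 of 408 cells), 22.7% in HFD replicate 2 (20.6% to 24.8%, 356 of 1569 cells) and 46.0% in JQF (40.1% to 51.9%, 132 of 287 cells). NCD was thus highest, JQF lay between NCD and both HFD libraries, and no counting intervals overlapped. With 1 library in 2 of the groups this order has no replicate check. The share also depends on the count of Timd4-negative macrophages. These numbered 22 in NCD, 402 in HFD replicate 1, 1213 in HFD replicate 2 and 155 in JQF. When each cell was first thinned to 3000 UMIs the shares were 64.8%, 1.03%, 16.7% and 30.4% in the same order. Free RNA can give a cell a Timd4 UMI, and T cells, which lack the gene, held one in 0.834% of NCD, 0.144% of HFD replicate 1, 1.34% of HFD replicate 2 and 0.892% of JQF cells. The median depth of those T cells was 10943, 7326, 6893 and 8266 UMIs, against 11809, 11408, 10134 and 11406 UMIs in the C1q-high macrophages. In each library neutrophils held a Timd4 UMI less often than T cells, and B, NK and endothelial cells more often. The share reached 2.94% of NK cells and 8.03% of endothelial cells in HFD replicate 2 and 5.71% of endothelial cells in JQF.

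**Figure D1:**
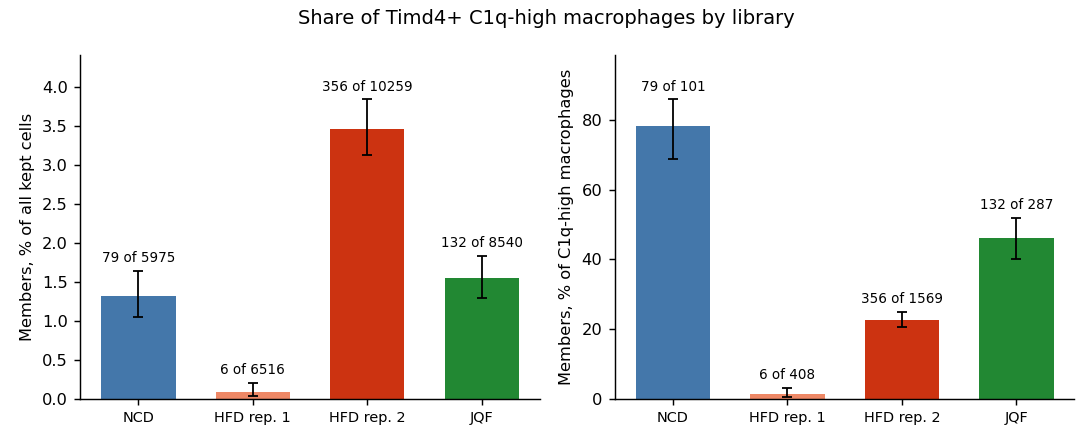
Bars give Timd4 KCs as a percentage of all kept cells (left) and of C1q-high macrophages (right) in each library, with exact 95% binomial intervals for counting error and the cell counts above the bars. HFD replicates 1 and 2 sit at 0.0921% and 3.47% on the left, and on the right JQF at 46.0% lies between NCD at 78.2% and the HFD libraries.

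The endothelial condition of the rule removed a larger share of cells from NCD than from the other libraries. Of the cells with 10 or more C1q UMIs and a Timd4 UMI, 62 of 145 in NCD (42.8%) had more than 2 Ptprb and Stab2 UMIs, against 1 of 8, 110 of 538 (20.4%) and 40 of 207 (19.3%) in HFD replicate 1, HFD replicate 2 and JQF. The free RNA of NCD held 2908 CPM of 7 endothelial marker genes, against 119, 529 and 302 CPM in the other libraries. Without any limit on these genes there were 133, 7, 447 and 163 members, or 83.6%, 1.56%, 24.8% and 50.3% of C1q-high macrophages, in the same order of libraries. The order of the shares of C1q-high macrophages was as before. The shares of kept cells were then 2.23% in NCD and 1.91% in JQF, and after thinning 1.13% and 1.00%, so that NCD and JQF changed places against the rule as given. With no Ptprb or Stab2 UMI allowed, the shares of kept cells were 0.402% in NCD and 0.796% in JQF, so that JQF was the higher.

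The label of the cells was checked on Clec4f, Cd163, Marco, Vsig4 and Lepr, which the rule did not use. Timd4 itself (chr11:46810800-46844332, GRCm38) had a median of 6 UMIs per member in NCD, 1.5 in HFD replicate 1, and 4 in HFD replicate 2 and in JQF. Members in NCD, HFD replicate 2 and JQF carried a median of 4 of the 5 other markers, and 14 of 79, 87 of 356 and 41 of 132 cells carried all 5. The 6 cells of HFD replicate 1 carried a median of 0.5. In that library 3 cells with a single Timd4 UMI had none of the 5 markers, and Cd163, Marco and Lepr had 0 UMIs in all 6 cells. The label therefore stood in 3 libraries, and in HFD replicate 1 only 3 cells had both Timd4 and Clec4f. The values of that library are given below, and the fit across 4 libraries depends on it.

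The C-type lectin Clec4f (chr6:83644542-83656187), which is restricted to KCs in the mouse, was the most abundant of the 6 markers. Its level was 2365 CPM in NCD, 1888 CPM in HFD replicate 1, 3798 CPM in HFD replicate 2 and 3133 CPM in JQF, where CPM is a gene's UMIs per 1000000 of the summed UMIs of a class in a library. Timd4-negative macrophages held 214, 261, 950 and 218 CPM in the same order. Vsig4 (chrX:96247203-96293438), a receptor for complement fragments, stood at 1821, 178, 1975 and 2117 CPM in members and at 421, 158, 557 and 168 CPM in Timd4-negative macrophages. Marco (chr1:120474538-120505024), a scavenger receptor that binds bacteria, stood at 1063, 0, 707 and 1331 CPM in members. Cd163 (chr6:124304656-124330527), the receptor that takes up haemoglobin bound to haptoglobin, stood at 494, 0, 445 and 527 CPM. The leptin receptor gene Lepr (chr4:101717404-101815352) stood at 73.0 CPM in NCD and at 218 and 226 CPM in HFD replicate 2 and JQF, and was 0 in HFD replicate 1. With 3 UMIs in place of 0, a gene without a UMI in the 73105 UMIs of HFD replicate 1 would stand at 41.0 CPM. This lies below the level of Cd163, Marco and Lepr in each of the other libraries, but takes no account of differences between the few cells of that library.

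**Figure D2:**
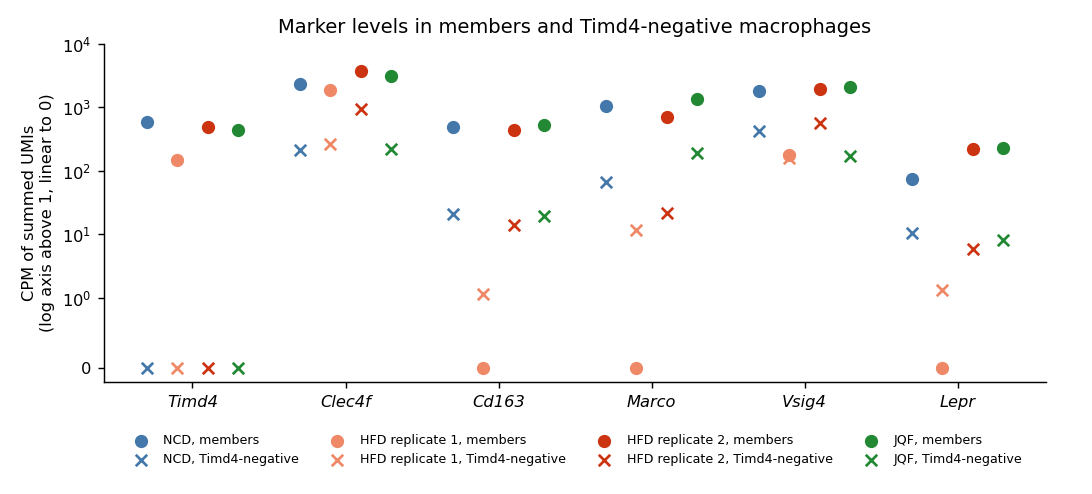
The summed level in CPM of 6 marker genes is plotted for members (circles) and Timd4-negative macrophages (crosses) of each library, on an axis that is logarithmic above 1 and linear to 0. In NCD, HFD replicate 2 and JQF the circles of Clec4f, Cd163, Marco, Vsig4 and Lepr lie above the crosses. The members of HFD replicate 1 lie at 0 for Cd163, Marco and Lepr. Timd4 is apart in every library because the rule sets it so.

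Cells just above the Timd4 limit held Clec4f well above those just below it, except in HFD replicate 1. Members with exactly 1 Timd4 UMI numbered 8 in NCD, 69 in HFD replicate 2 and 23 in JQF, and held Clec4f at 1613, 2365 and 3106 CPM. Members with 3 or more Timd4 UMIs held 2427, 4183 and 3273 CPM, and Timd4-negative macrophages the 214, 950 and 218 CPM given above. In HFD replicate 1 the 3 members with 1 Timd4 UMI held no Clec4f UMI.

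The levels of all other genes were compared between Timd4 KCs and Timd4-negative macrophages of the same suspension. Of 13 genes of KC identity other than the 5 markers 9 were higher in Timd4 KCs, while 5 of 15 genes of monocyte-derived macrophages and 4 of 12 of MHC class II presentation were lower. UMIs were summed per class in NCD, HFD replicate 2 and JQF, the libraries with at least 20 cells of both classes, and tested with edgeR's quasi-likelihood test with library as a block. Of 9997 genes tested, 442 passed an adjusted p of 0.05 (4.42%), 191 of them higher in Timd4 KCs (1.91%) and 251 lower (2.51%). The direction was the same in all 3 libraries for 439 of them, which is no separate check since they were called on these libraries. The genes of the rule were left out of the test. Since the class boundary rests on Timd4 counts alone, and since the 5 markers above define the cells by name, their differences are a description of the label and no further evidence for it.

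The list of 18 KC surface and secreted genes held the 5 markers, all of which rose. Of its other 13 genes 9 rose and none fell, with a median log2 fold change of 1.86 against 0.00 over all genes, and Cd207, Adgre1, Cd81 and Cd38 did not pass. Beyond the markers, C6, a late complement component, was at 726, 678 and 661 CPM in the members of NCD, HFD replicate 2 and JQF and at 69.0, 57.8 and 32.9 CPM in Timd4-negative macrophages. Its log2 fold change was 3.72 ± 0.26 (SE, adjusted p = 0.00222). Folr2, a folate receptor of resident macrophages, was at 456, 897 and 600 CPM against 41.4, 265 and 43.0 CPM. Cdh5, better known as the endothelial cadherin, was at 374, 317 and 327 CPM against 44.8, 98.1 and 21.5 CPM, and rose by 2.74 ± 0.41 on the log2 scale (adjusted p = 0.0209). Cd5l, a secreted inhibitor of apoptosis, was among the most abundant genes, at 3900, 5671 and 4941 CPM against 790, 2866 and 739 CPM.

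Some of the genes of iron, haem and waste clearance passed the test. Of all genes tested, 1.91% were higher in Timd4 KCs and 2.51% lower. Whether the share of a list differed from that of all genes was not tested. Slc40a1, which encodes the iron exporter ferroportin, was at 1891, 1648 and 1733 CPM in members and at 431, 883 and 257 CPM in Timd4-negative macrophages. Hmox1, the enzyme that opens the haem ring, was at 2076, 1259 and 1905 CPM against 807, 656 and 662 CPM (log2 fold change 1.21 ± 0.21, adjusted p = 0.0292). Of the 16 genes of that list 3 rose and none fell. Spic, the transcription factor linked to haem-handling macrophages, rose by 1.16 ± 0.23 (adjusted p = 0.0427), at 251, 219 and 262 CPM against 65.5, 133 and 112 CPM. Spic and Irf7 were the transcription factors of the KC list that passed, of 14 measured. The mannose receptor Mrc1, the collectin Colec12, Cd300ld and Cd209f rose among 17 receptors for scavenging and efferocytosis. Cd209f was found in 2.53%, 1.12% and 2.27% of members, so its level rested on a few cells.

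Among 11 complement genes measured 4 rose, C6, C4b and Cfp among them, and 1 fell, the integrin chain Cd11c gene Itgax. Of all genes tested, 4.42% passed in either direction. The type I receptor for bone morphogenetic proteins, Bmpr1a, was at 49.8, 40.3 and 63.7 CPM in members and at 3.45, 3.05 and 6.40 CPM in Timd4-negative macrophages. Its log2 fold change of 3.54 ± 0.25 (adjusted p = 0.00222) made it the 1 gene that rose among 13 receptors for signals of the KC niche. Tgfbr1, the type I receptor for transforming growth factor beta, fell by 1.23 ± 0.19 on the log2 scale (adjusted p = 0.0225).

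The lipid genes moved in both directions. Apoc1, an apolipoprotein, was at 1170, 3236 and 2340 CPM in members against 124, 343 and 167 CPM in Timd4-negative macrophages (log2 fold change 3.38 ± 0.24, adjusted p = 0.00222), and Scd1, the desaturase that makes oleate, rose too. Apoc2, Fabp5 and Pparg were among the genes that fell, and 22 of the 28 genes measured did not pass. Of all genes tested, 4.42% passed. In the list of lipid-associated macrophages 6 of 16 genes fell, namely Gpnmb, Spp1, Cd63, Fabp5, Itgax and Syngr1, and the protease gene Ctsl rose. Trem2, the receptor that marks lipid-associated macrophages, did not pass the test, at 30.9, 188 and 209 CPM in members against 48.3, 281 and 255 CPM.

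Of 15 genes of monocyte-derived macrophages 5 fell and none rose, where 2.51% of all genes tested fell and 1.91% rose. Ccr2, the chemokine receptor that brings monocytes into tissue, was at 0, 24.1 and 5.20 CPM in the members of NCD, HFD replicate 2 and JQF and at 241, 179 and 281 CPM in Timd4-negative macrophages. Cx3cr1, the fractalkine receptor, was at 11.2, 15.0 and 11.1 CPM against 134, 119 and 193 CPM (log2 fold change -3.54 ± 0.27, adjusted p = 0.00226). Ly6c2, Chil3 and Clec4e fell as well. Of 12 genes of MHC class II presentation 4 fell, including H2-Ab1 at 1708, 1909 and 1201 CPM against 3472, 4026 and 5404 CPM, and its master regulator Ciita. The inflammatory genes Tnf, Ccl3, Ccl4, Cxcl1 and Cxcl2 fell and Ccl24 rose among 27 cytokine genes.

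The genes furthest apart among those measured well were Lepr, Cd163, Dlc1, Marco, C6, Pcolce2, Apoc1, Ank2, Clec4f and Ccdc148 on the higher side. On the lower side they were Slpi, Saa3, Cd93, Slc7a11, Ccr2, Zc3h12c, Sema4d, Spp1, Cx3cr1 and Traf1. Dlc1 rose by 4.08 ± 0.31 on the log2 scale (adjusted p = 0.00226). Spp1, the secreted protein osteopontin, was at 0, 18.0 and 9.10 CPM in members against 3.45, 233 and 117 CPM, and so carried its difference in HFD replicate 2 and JQF. Slpi, a secreted protease inhibitor, was at 0, 2.54 and 1.95 CPM against 2220, 20.5 and 165 CPM, and its highest level lay in the 22 Timd4-negative cells of NCD. Of these 22 cells 2 held at least 3 UMIs of the peritoneal macrophage markers Gata6 and Prg4, and 18.2% of the UMIs of the class. All 644 Slpi UMIs and all 91 UMIs of Saa3, an acute-phase protein, of the class in NCD lay in these 2 cells, so that the other Timd4-negative cells of NCD held no UMI of either gene. The class in JQF also had 2 such cells, with 24.1% of its Slpi and 81.6% of its Saa3 UMIs. Without the cells of this kind, a choice made after seeing the data, the log2 fold change was -4.28 ± 0.58 for Slpi (edgeR adjusted p = 0.0141) and -5.02 ± 0.98 for Saa3 (adjusted p = 0.0363). The library with most cells, HFD replicate 2, had the smallest ratio of the 3 libraries for Slpi, Cd93, Slc7a11, Ccr2, Zc3h12c, Sema4d, Cx3cr1 and Traf1 on the lower side, and for Pcolce2, Clec4f and Ccdc148 on the higher side.

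**Figure D3:**
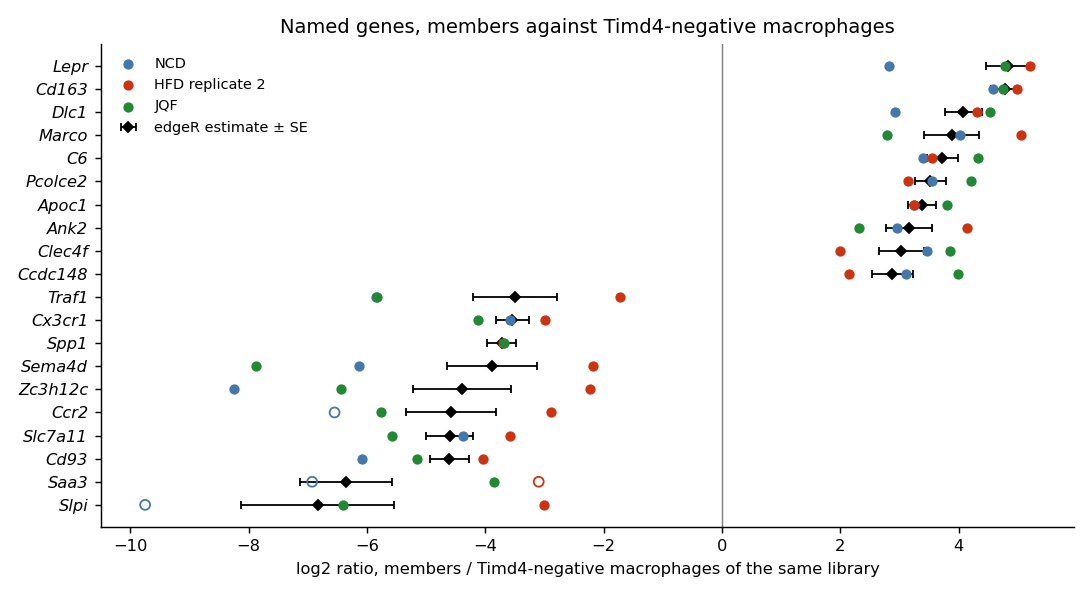
The log2 ratio of members to Timd4-negative macrophages is plotted for 20 named genes, as the edgeR estimate with its SE (black) and as the ratio in each of 3 libraries (colours). Open circles mark ratios where a class had 0 UMIs and 3 UMIs were put in its place. All plotted points of the 10 upper genes lie above 0 and all of the 10 lower genes below 0.

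Against only those Timd4-negative macrophages that had a Clec4f UMI, 46 of 10197 genes passed, in the 2 libraries with enough of these cells. Of the 442 genes called above, 40 were among them (9.05%). The same 2 libraries gave 490 genes against all Timd4-negative macrophages. The class with a Clec4f UMI was also smaller, with 694 against 1213 cells in HFD replicate 2 and 37 against 155 in JQF. The part of these smaller counts in the drop was not tested. After thinning to 3000 UMIs, 37.5%, 45.5% and 20.0% of Timd4-negative macrophages in NCD, HFD replicate 2 and JQF had a Clec4f UMI. The differences described above are against all Timd4-negative macrophages. Of the 20 named genes, Lepr, Cd163, C6, Pcolce2, Apoc1, Ccdc148, Cd93 and Slc7a11 had an adjusted p under 0.05 in each of 16 alternatives, and the others in 12 to 15 of them. The paired fit had 2 residual degrees of freedom, and without JQF the count of genes fell to 160.

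The share of members with a UMI was measured for single KC genes, and it moves with a gene's level and the depth of the cells. Marco was detected in 50 of 79 members in NCD, 175 of 356 in HFD replicate 2 and 84 of 132 in JQF. Vsig4 was detected in 97.5%, 95.5% and 97.0% of members and Cd5l in 98.7%, 99.4% and 98.5%, whereas Lepr, a gene of lower level, was detected in 38.0%, 50.3% and 56.1%. When each cell was thinned to 3000 UMIs the shares were 44.0%, 37.7% and 47.2% for Marco and 18.7%, 31.3% and 41.5% for Lepr. A cell with 0 UMIs of these genes is not shown to lack them. Members with a Marco UMI were deeper, with medians of 14985, 9441 and 11196.5 UMIs against 10128, 8847 and 9278.5 UMIs. No test was run on this split.

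A few members without any Clec4f UMI held a large share of certain transcripts. They numbered 2 of 79 in NCD, 3 of 6 in HFD replicate 1, 6 of 356 in HFD replicate 2 and 4 of 132 in JQF. In JQF these 4 cells were deep, with a median of 22487 UMIs against 9707.5 in the other members, and held 9.44% of the UMIs of all members. They also held 99.5% of the Fn1 UMIs (619 of 622), 99.2% of F13a1, 94.3% of Lyve1, 98.0% of S100a4 and 92.4% of S100a6. By contrast they held 2.21% of Vsig4 and 0 of 2047 Marco UMIs. Of Timd4 they held 6.93%, with a median of 11 UMIs per cell against 4 in the other members. All 2307 UMIs of Retnla, a secreted product of alternatively activated macrophages, lay in 1 cell. All 242 UMIs of Prg4 and all 8 of Gata6, which mark large peritoneal macrophages, lay in another cell that had 1 Timd4 UMI and no Vsig4, Cd163 or Marco UMI. The members of NCD, HFD replicate 1 and HFD replicate 2 held 0 Prg4 UMIs and 0, 0 and 1 Gata6 UMI. These cells passed the rule and were kept in all counts. Values without them are given for the comparisons of JQF with HFD replicate 2 and with NCD.

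**Figure D4:**
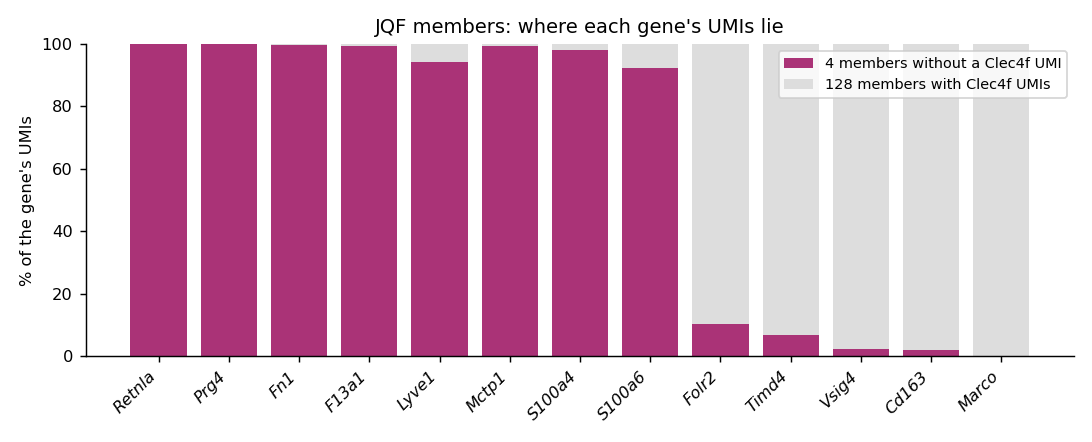
Bars give, for the 132 members of JQF, the percentage of a gene's UMIs that lie in the 4 cells without a Clec4f UMI (purple) and in the 128 cells with one (grey). From Retnla to S100a6 at least 92.4% lie in the 4 cells, whereas for Vsig4, Cd163 and Marco at most 2.21% do. The values are 10.3% for Folr2 and 6.93% for Timd4, beside 9.44% of all UMIs of the members.

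The members of the libraries were then compared with each other, first HFD replicate 2 with NCD. Of 13 lipid-associated genes 11 were higher in HFD replicate 2, and 8 of 18 immediate early and heat shock genes were lower, while of 18 KC identity genes 1 was higher and 1 lower. Each side is 1 library, so there is no test and no replicate check. A gene was counted when its levels were at least 2-fold apart, at least 50 CPM in one library, and its exact 95% Poisson intervals did not overlap. Of 3787 genes measured 636 met this (16.8%), 291 higher and 345 lower in HFD replicate 2. TMM scaling, which moved the median by 0.10 on the log2 scale, left 389 higher and 261 lower. When the 3 highest cells of each gene were left out and the level had also to exceed that of the free RNA of its library, 80 genes were higher and 107 lower.

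In the list of lipid-associated macrophages 11 of 13 measured genes were counted higher in HFD replicate 2 and none lower, with a median log2 ratio of 2.61 against -0.08 over all genes. Trem2 was at 30.9 CPM in NCD (exact Poisson interval 21.7 to 42.8), 575 in HFD replicate 1 (414 to 777), 188 in HFD replicate 2 (175 to 202) and 209 in JQF (187 to 233). All 3 libraries of the high-fat diet thus lay above NCD, although 3 of the 6 cells of HFD replicate 1 had none of the 5 markers. Cd63, a tetraspanin of lysosomes, was at 21.5, 657, 302 and 227 CPM in the same order, Cd9 at 21.5, 246, 176 and 116 CPM, and Gpnmb at 4.29, 575, 116 and 96.9 CPM. Gpnmb was found in 19.4% of the members of HFD replicate 2 and in 12.9% of those of JQF. Mmp12, the elastase of macrophages, was at 206, 301, 1357 and 1557 CPM, and the lysosomal protease Ctsd at 1135, 4582, 3011 and 3363 CPM. Trem2, Cd63, Mmp12, Ctsd, Lgals3 and Capg met the stricter condition on single cells and free RNA. Gpnmb, Cd9, Fabp5, Itgax and Atp6v0d2 did not. Ctsl was at 471, 479, 469 and 516 CPM, so the libraries did not separate.

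The Timd4-negative macrophages held the same transcripts. Their levels of Trem2 were 48.3, 461, 281 and 255 CPM and those of Gpnmb 17.2, 697, 315 and 488 CPM in NCD, HFD replicate 1, HFD replicate 2 and JQF. The free RNA held Trem2 at 2.55, 133, 146 and 30.3 CPM and Gpnmb at 0.910, 164, 120 and 26.5 CPM. The part of free RNA in these levels was not tested.

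With HFD replicate 1 included, edgeR could be run across all 4 libraries, with 1 residual degree of freedom that came from the HFD libraries alone. Of 9797 genes 298 passed for HFD against NCD (3.04%), 97 higher and 201 lower. The 6 members of HFD replicate 1 had 0 UMIs for 126 of these genes. For 271 of the called genes HFD replicates 1 and 2 both differed from NCD in the same direction. The genes were called on these same libraries, so this agreement is no separate check. A count of 0 also lies below any NCD level above 0. DESeq2 called 12 genes. In the lipid-associated list 10 of 14 genes measured rose and none fell. Gpnmb rose by 5.86 ± 0.78 on the log2 scale (edgeR adjusted p = 1.2e-10), Cd63 by 4.23 ± 0.65 (adjusted p = 4.4e-08) and Trem2 by 3.30 ± 0.62 (adjusted p = 2.35e-05). The spread in this fit came from setting 6 cells, of which 3 lacked all 5 markers, against 356, and without HFD replicate 1 no spread between libraries is left to test against.

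Of 24 cytokine and chemokine genes measured 4 were counted higher and 6 lower in HFD replicate 2 than in NCD, against 291 higher and 345 lower of all 3787 genes, with a median log2 ratio of -0.66 against -0.08 over all genes. Il18, Ccl9 and Ccl6 on the higher side and Ccl2 and Tnf on the lower side met the stricter condition on single cells and free RNA. Ccl9, a chemokine for monocytes, was at 32.6 CPM in NCD (23.1 to 44.8), 999 in HFD replicate 1, 448 in HFD replicate 2 (427 to 469) and 611 in JQF. Ccl6 was at 561, 2038, 1587 and 2247 CPM. Tnf was highest in NCD, at 404, 27.4, 97.4 and 181 CPM, and Ccl2 was at 179, 0, 52.5 and 194 CPM, so that JQF lay at the level of NCD. Il6 was at 55.8, 0, 13.7 and 58.5 CPM. In the fit across 4 libraries Ccl6 and Ccl9 rose in HFD against NCD, and Tnf, Ccl2, Il6, Ccl8 and Cxcl1 fell, among 26 cytokine genes measured. Of the UMIs of Ccl8 in NCD 94.7% lay in 3 cells.

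Of 18 immediate early and heat shock genes 8 were counted lower in HFD replicate 2 and none higher, against 16.8% of all genes in either direction, with a median log2 ratio of -0.87 against -0.08 over all genes. Egr1, a transcription factor made within minutes of a stimulus, was at 2445 CPM in NCD (2356 to 2536), 533 in HFD replicate 1, 321 in HFD replicate 2 (303 to 339) and 1107 in JQF (1055 to 1161). Hspa1b, an inducible chaperone, was at 1626, 82.1, 406 and 336 CPM, and Dnajb1, its partner, at 264, 13.7, 62.9 and 85.2 CPM. Fos was at 2035, 1327, 1441 and 2422 CPM and was not counted. The same 8 genes, Jun, Junb, Egr1, Ier3, Hspa1a, Hspa1b, Dnajb1 and Hsph1, fell in the fit across 4 libraries. These genes are known to respond to enzymatic digestion of tissue. The 18 genes together were at 22417, 10287, 13022 and 18698 CPM in members and at 33902, 11756, 16708 and 21825 CPM in Timd4-negative macrophages, so that NCD was highest in both classes. In the free RNA they were at 14107, 17261, 18211 and 18793 CPM, where NCD was lowest, although Egr1 alone was highest in NCD there, at 779, 500, 398 and 658 CPM. The part of cell handling in the difference was not tested.

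**Figure D5:**
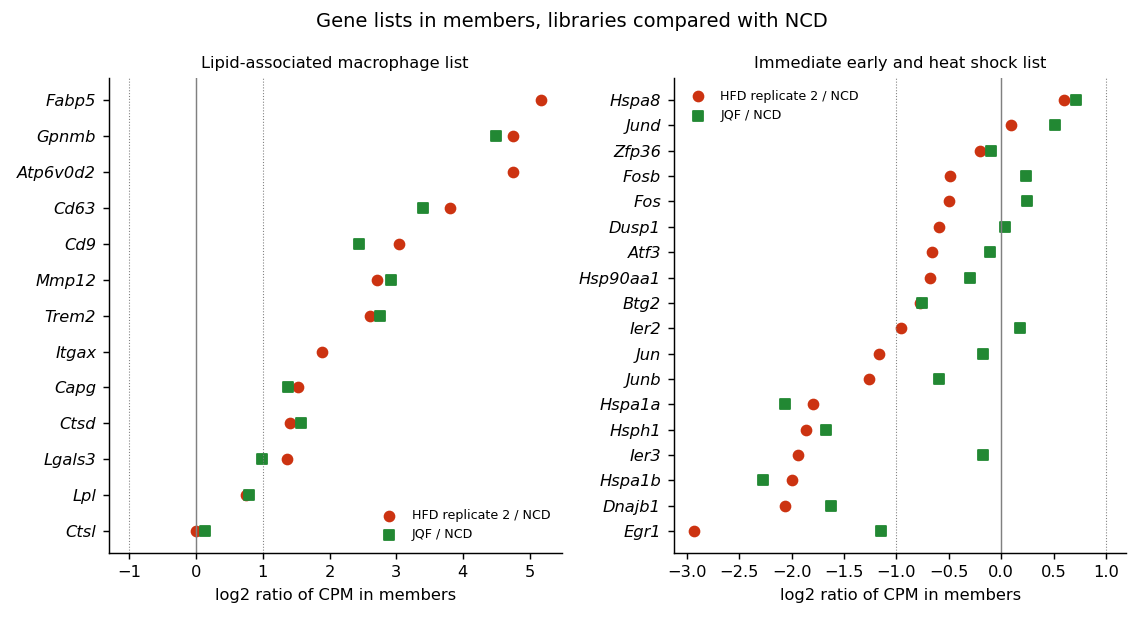
Each point is the log2 ratio of a gene's CPM in the members of HFD replicate 2 (red circles) or JQF (green squares) to NCD, for genes of at least 50 CPM in a library of the pair, with dotted lines at 2-fold. In the left list 11 of 13 genes lie 2-fold or more above NCD in HFD replicate 2, and in the right list 8 of 18 lie 2-fold or more below.

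The KC lists were counted in the same way between HFD replicate 2 and NCD, where 16.8% of all genes measured were counted. Of 18 surface and secreted genes, Lepr was counted higher, at 218 against 73.0 CPM, and Cd207, which encodes langerin, lower, at 129 against 277 CPM, with a median log2 ratio of 0.24 against -0.08 over all genes. The transcription factor Irf7 was at 302 against 125 CPM, and the other 12 of the 13 KC transcription factors measured were not counted. Receptors for the KC niche, with 10 measured, gave no gene in either direction. Of 14 scavenging and efferocytosis receptors measured 3 were higher, Cd36, Itgb5 and Colec12, and none lower. Whether these shares differ from that of all genes was not tested. The interferon genes were split, with Bst2, Irf7, Ifit3 and Xaf1 higher and Cxcl9, Cxcl10 and Isg15 lower. Under the stricter condition on single cells and free RNA, Irf7, Bst2 and Xaf1 of the interferon genes were left on the higher side and none on the lower side. Among the KC and scavenging genes named above, Lepr, Irf7, Itgb5 and Colec12 met that condition, and Cd207 and Cd36 did not.

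The genes furthest apart between HFD replicate 2 and NCD were often carried by few cells. Fn1 was at 51.2 against 0.859 CPM, but 3 cells held 84.2% of its UMIs in HFD replicate 2, and 80.1% of those of Car3, a carbonic anhydrase, lay in 3 cells. Ddit4, a stress-induced inhibitor of mTORC1, was spread over 168 of 356 members, at 94.1 against 2.58 CPM. Alcam, Fabp5, S100a6, Gpnmb, Atp6v0d2 and Mmp13 were the other high genes, between 61.1 and 137 CPM in HFD replicate 2 and at most 5.15 CPM in NCD. Gkn2, a secreted product of stomach epithelium, was found in 192 of 356 members at 77.6 CPM and had 0 UMIs in NCD, while the free RNA of HFD replicate 2 held it at 2703 CPM. On the lower side, Pde4c, a phosphodiesterase, was at 1.01 against 161 CPM. The rest of that side held the predicted genes Gm11867, Gm35769, Gm3336, Gm17749 and Gm12703, together with Plekhg2, Ccdc138, Slc15a2 and the guanylate-binding protein Gbp4.

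The members of JQF and of HFD replicate 2 were closer to each other. Of 3578 genes measured, 112 were at least 2-fold apart (3.13%), 80 higher and 32 lower in JQF. Leaving out members without a Clec4f UMI gave 56 higher and 35 lower. Under the stricter condition on single cells and free RNA 12 were higher and 11 lower. Among KC surface genes, KC transcription factors, niche receptors, scavenging receptors, iron genes, pattern recognition receptors and lysosomal genes none was counted in either direction.

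The higher genes in JQF that were not carried by a few cells included Egr1, at 1107 against 321 CPM, and Ier3, at 247 against 72.5 CPM. The chemokine genes Ccl2, at 194 against 52.5 CPM, and Ccl3, at 421 against 154 CPM, were higher too. Pf4, the platelet chemokine, was at 326 against 78.1 CPM, and the complement regulator Cd55 at 74.8 against 17.0 CPM. On the lower side the interferon-induced genes Cxcl9, at 86.5 against 395 CPM, Gbp2, at 67.6 against 201 CPM, Gbp2b, at 29.9 against 107 CPM, and Ifit3, at 26.0 against 69.5 CPM, stood out, with the complement factor Cfb at 25.4 against 73.0 CPM. Of 13 interferon genes measured 3 were lower and none higher, with a median log2 ratio of -0.55 against 0.03 over all genes. The lipid-associated genes Fabp5, Itgax and Atp6v0d2 were lower, at 20.8, 25.4 and 28.6 CPM against 92.8, 54.0 and 69.2 CPM, and the other 10 of 13 measured were not counted. None of the 3 met the stricter condition on single cells and free RNA. The pairs of libraries share HFD replicate 2, so a gene that was high in that library alone appears on both lists.

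Many of the named genes of this pair lay in few cells or were also abundant in free RNA, whose part in their levels was not tested. Retnla, Prg4, Cbr2, Lyz1, F13a1, Gas7, Fn1 and Mctp1 were higher in JQF with at least 95.2% of their UMIs in 3 cells or fewer, and Slc15a2 with 79.2%. Lsmem1 was spread over 33 cells, at 67.6 against 5.58 CPM. In the members with a Clec4f UMI the log2 ratios of Fn1, F13a1, Mctp1 and Lyz1 turned to -3.76, -2.81, -4.09 and -1.11. Gkn2, Tff1 and Gkn1, all products of stomach epithelium, had 0 UMIs in JQF. With 3 UMIs in place of 0 as above, they were 39.8-fold, 27.8-fold and 26.0-fold lower. They were at 77.6, 54.3 and 50.7 CPM in members of HFD replicate 2 and at 2703, 3098 and 1874 CPM in its free RNA, against 3.79, 2.47 and 1.98 CPM in the free RNA of JQF. Fabp1, a hepatocyte gene, was at 18.9 against 144 CPM in members and at 1427 against 3716 CPM in free RNA. Plac8, Car3, Adgrl3, Cxcl9, Fabp5 and Serpina3g were the other genes lower in JQF. Plac8, a monocyte gene, was at 15.0 against 143 CPM, found in 127 of 356 members of HFD replicate 2.

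In the fit across 4 libraries 67 of 9797 genes passed for JQF against HFD (0.684%), 51 higher and 16 lower. HFD replicate 1 had 0 UMIs for 47 of them, and DESeq2 called 2. Marco rose in JQF by 1.73 ± 0.43 on the log2 scale (edgeR adjusted p = 0.0137), with 0 UMIs in HFD replicate 1, whereas JQF against HFD replicate 2 alone stood at 1331 to 707 CPM, below 2-fold. Ccl2 and Il6 rose and Ifi44 and Fabp5 fell. The JQF members without a Clec4f UMI were part of this fit, and values without them are not given for it. Leaving out only the JQF member that held Prg4 and Gata6 gave fewer higher genes and as many lower genes. Plac8 fell by 2.93 ± 0.60 (adjusted p = 0.000372).

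JQF and NCD differed at 499 of 3805 genes (13.1%), 265 higher and 234 lower in JQF, or 304 and 196 under TMM scaling. Without the members that lack Clec4f there were 210 and 226. Of 10 lipid-associated genes measured 7 were higher and none lower. Trem2, Cd63, Mmp12, Ctsd and Capg met the stricter condition, at 209, 227, 1557, 3363 and 203 CPM in JQF against 30.9, 21.5, 206, 1135 and 78.1 CPM in NCD. The lipid droplet coat Plin2 was at 1036 against 433 CPM, the fatty acid receptor Cd36 at 1329 against 506 CPM, and the ferritin heavy chain Fth1 at 10865 against 4558 CPM. Among 13 interferon genes 5 were lower and 2 higher, and Cxcl9 was at 86.5 against 1067 CPM, with 80.1% of its NCD UMIs in 3 cells. The genes Gbp4, Serpina3g, Gbp2b and Iigp1, which are induced by interferon gamma or inflammation, were lower too, at 5.85, 16.9, 29.9 and 53.3 CPM against 221, 228, 386 and 445 CPM. The 3 highest NCD cells held 77.8%, 69.5%, 25.8% and 52.7% of these UMIs. Ccl8, Slco3a1, Pde4c, Gm11867 and Gm35769 were the other genes furthest below NCD, with 94.7%, 63.7%, 51.3%, 57.6% and 18.5% of their NCD UMIs in 3 cells. The genes furthest above were Retnla, Fn1, Lyz1, S100a6, Anxa1, Mctp1, Prg4, S100a4, S100a10 and Mmp13, and at least 84.8% of the UMIs of each lay in 3 cells of JQF.

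Depth and transcripts of other cell types were last compared among the members. They held 1164485, 73105, 3943373 and 1537717 UMIs in NCD, HFD replicate 1, HFD replicate 2 and JQF, with medians of 13671, 10854, 9170 and 10122.5 UMIs per cell and mitochondrial medians of 3.33% to 4.59%. The summed level of 5 hepatocyte markers lay between 27.4 and 146 CPM and that of 7 endothelial markers between 82.1 and 270 CPM. The endothelial sum was highest in JQF, where 94.3% of the UMIs of the marker Lyve1 lay in 2 members without a Clec4f UMI. Lyve1 stood at 7.18 CPM in the JQF members with a Clec4f UMI. T or NK cell markers were at no more than 27.4 CPM and B or plasma cell markers at no more than 8.62 CPM. Of 5 monocyte markers the sum was 67.0 CPM in NCD, 109 in HFD replicate 1, 190 in HFD replicate 2 and 32.5 in JQF. The longer list of 15 genes of monocyte-derived macrophages summed to 2386, 6238, 4455 and 6781 CPM, so that JQF was lowest in the short list and highest in the long one. Of the 8 genes of the long list measured for JQF against HFD replicate 2, 5 were higher and 1 was lower, and none met the stricter condition on single cells and free RNA. No member's barcode recurred as a member of another library, although 12 to 27 barcodes of kept cells were shared per pair of libraries. Among the barcodes with the highest doublet scores were 0, 0, 14 and 3 members.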

How the data were processed

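The authors deposited, per library, raw UMI counts per gene and barcode, with no normalization. The labels name Cell Ranger 6.0.1, Seurat 4.0.3 and mm10, whereas the file headers name other Cell Ranger releases, so whether introns were counted is not settled. Gene positions were taken from the GENCODE M21 annotation of GRCm38. Members, gene lists and tests were chosen with earlier results of these data known. Counts were summed per library and class, since cells are not replicates. edgeR 4.0.16 quasi-likelihood tests with TMM scaling, filterByExpr and Benjamini-Hochberg adjustment were run in R 4.3.3 and tested on simulated data, with DESeq2 1.42.0 as an alternative, and SE is the absolute log2 fold change over the square root of F. The study gives the liver tissues as 1 for NCD, 2 for HFD and 1 for JQF, and p-values measure the spread between these libraries. Infinite prior degrees of freedom in the fit of conditions mean that each gene took the spread fitted over all genes at its mean level, and not its own. Genes were named as the 10 furthest apart in each direction, in the paired fit among called genes of at least 50 CPM on average with the same direction in all 3 libraries, and between libraries by ratio, with 3 UMIs in place of 0. Other genes come from the lists. Names chosen after the values were seen are those under the stricter condition, the peritoneal marker cells and the cells without Clec4f. Free RNA is the sum of uncalled barcodes with 1 to 100 UMIs. Doublets were kept; Scrublet in scanpy 1.11.5 ranked barcodes for the alternative that removed 0.8% per 1000. Of 320 listed genes, Mx1 and Clec7a had no row under these symbols. Some genes of the lists are not reported here by name.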

Additional observations from a re-analysis of the deposited data

How the results depend on the processing

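Shares of kept cells turned direction with the HFD library used. The log2 ratio of HFD to NCD was 1.39 without HFD replicate 1 and -3.84 without replicate 2, and that of JQF to HFD was -1.17 and 4.07. The share of members among C1q-high macrophages was 88.8% in NCD with at least 20 C1q UMIs and 64.8% after thinning. It was 18.3% in HFD replicate 2 and 38.0% in JQF with at least 2 Timd4 UMIs, 18.0% and 32.2% with no Ptprb or Stab2 UMI, and 16.7% and 30.4% after thinning. Genes that differed between members and Timd4-negative macrophages numbered 694 with at least 2 Timd4 UMIs, 1476 with no filter on low counts and 810 with DESeq2. They numbered 816 without doublets, 998 with no Ptprb or Stab2 UMI and 46 against Clec4f-positive cells, but these fits held HFD replicate 2 and JQF alone, since NCD then had fewer than 20 Timd4-negative cells. The fit with at least 20 C1q UMIs held the same pair of libraries. Without 1 library they numbered 160 to 490, with 160 without JQF and 490 without NCD. Both classes of a library came from 1 suspension, and without the library block 101 genes passed. DESeq2 called 12 genes for HFD against NCD and 2 for JQF against HFD, and without doublets the latter gave 44. Without either HFD library the conditions could not be tested, since no residual degree of freedom was left.

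For the ratios of 2 libraries, a limit of 1.5-fold gave 1544 genes for HFD replicate 2 against NCD, 358 for JQF against HFD replicate 2 and 1302 for JQF against NCD. A minimum of 200 CPM gave 253, 25 and 163. The condition on the 3 highest cells and free RNA, chosen after seeing the data like those on Clec4f and on the absence of a Ptprb and Stab2 limit, gave 187, 23 and 105. JQF against HFD replicate 2 gave 197 genes with no Ptprb or Stab2 UMI, and JQF against NCD gave 230 after thinning. With no limit on these genes, JQF against NCD held 245 higher and 360 lower genes. In members with a Clec4f UMI the log2 ratio of JQF to HFD replicate 2 turned to -1.11 for Lyz1, -2.81 for F13a1, -3.76 for Fn1 and -4.09 for Mctp1. The log2 ratio of JQF to NCD was -0.27 for Lyz1 and Anxa1 and -0.85 for Mctp1. In these members Mctp1 was at 1.44 CPM in JQF and 0 in NCD, so its sign came from putting 3 UMIs in place of 0. Lyz1 was at 0.718 CPM in JQF and 0.865 CPM in NCD, where it had 1 UMI, too few to give a direction. After thinning Fn1 stood at -0.99 against HFD replicate 2. Against NCD Fn1 stood at -0.024, Lyz1 and Mctp1 at -1.02, Anxa1 at -2.02 and S100a4 at -0.44. Before thinning NCD held 0 UMIs of Mctp1 and S100a4 and 1 UMI each of Fn1, Lyz1 and Anxa1. Since 3 UMIs stood in place of 0, the signs of these thinned ratios to NCD show no direction. Without doublets Mctp1 stood at -0.31 against HFD replicate 2. The cause of these changes was not tested. No paired analysis was possible because NCD and JQF had 1 library each and share only the number 1 with HFD.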
